A study of Mus musculus with 12 samples.

Results

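The Bcl2 family genes described here are 10 survival and death genes, taken by symbol from the deposited gene tables: Mcl1, Bcl2, Bcl2l1, Bcl2l11, Bax, Bak1, Bbc3, Pmaip1, Bid and Bcl2l15. They are 10 of 24325 gene symbols in each table, and all 10 reached at least 1 FPKM in all 12 libraries. FPKM divide a gene's sequenced fragments by its length and by the library's size. Levels of different genes can then be set side by side, with less certainty where similar or overlapping genes may share reads. The study set splenic B cells of mice lacking Mzb1, an endoplasmic reticulum co-chaperone of antibody-secreting cells, beside cells that keep it. B220+ spleen cells of C57BL/6 mice received 25 µg/ml of lipopolysaccharide, a bacterial stimulus that drives B cells towards antibody secretion, and stayed in culture for 4 days. The cells were then sorted into 3 populations: activated B cells (ActB, CD138- Blimp1-GFP-), pre-plasmablasts (PrePB, CD138- Blimp1-GFP+) and plasmablasts (PB, CD138+ Blimp1-GFP+). The wild-type (wt) groups were Mzb1+/+ Prdm1+/gfp and the knockout (ko) groups Mzb1-/- Prdm1+/gfp, with 2 libraries in each of the 6 groups. Every group, the wt included, carries a GFP reporter in 1 Prdm1 allele, so no library comes from cells with both copies of Prdm1, the gene of Blimp1. The age and sex of the mice are not given in the sources used here, nor is it stated whether the libraries of a group come from separate mice, so each p-value measures the spread between these libraries. In the ko that spread may be technical, and the 2 wt libraries of each group differ in Xist and Ddx3y and so do not come from a single mouse.

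Mzb1 itself averaged 931 ± 121, 9996 ± 99.0 and 16396 ± 1361 FPKM (SD, n = 2) in wt ActB, PrePB and PB, and 281 ± 11.9, 885 ± 19.9 and 967 ± 57.8 FPKM in the ko groups, so transcript was reduced and still counted in the ko. The B cell marker Cd79a, a chain of the B cell receptor complex, was present in all 12 libraries (586 to 1999 FPKM). The sorting markers Sdc1, which encodes CD138, and Prdm1 followed the gates. Library totals ran from 418966 to 581262 FPKM, and 10180 to 10466 genes reached 1 FPKM. The step of the lowest FPKM values, which carries the relation between fragments and FPKM, put the libraries into sets of 8 and 4. The set of 4 holds the ko ActB and ko PrePB libraries numbered 2 and both ko PB libraries, so in PB this difference and the genotype cannot be told apart. Xist was at 33.3 to 81.4 FPKM in the 3 wt libraries numbered 1 and at most 0.389 FPKM in the other 9, where the Y-linked Ddx3y was at 15.7 to 22.0 FPKM. In bulk RNA, fewer cells carrying a transcript and less transcript per cell cannot be told apart.

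The Bcl2 family decides whether the outer mitochondrial membrane is opened, which releases cytochrome c and starts the caspases. Pro-survival members (the proteins Mcl-1, Bcl-2 and Bcl-xL) hold the pore-forming effectors Bax and Bak in check, and BH3-only members (Bim, Puma, Noxa and Bid) bind and block the pro-survival proteins or engage the effectors directly. Long-lived plasma cells are known to depend on Mcl-1, and Bim is known as the main BH3-only protein that limits the life of B cells.

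The effector Bax and the pro-survival Mcl1 were the most abundant transcripts of the family in every group, apart from ko PB, where the Bcl2l11 libraries overlapped those of Bax. In wt ActB the order by mean was Bax (310 FPKM), Mcl1 (241), Bak1 (72.9), Bid (62.0), Bbc3 (53.1), Bcl2l11 (33.1), Bcl2 (21.9), Pmaip1 (14.6), Bcl2l1 (13.8) and Bcl2l15 (1.69), and no neighbours in that order overlapped between their libraries. In wt PB the order was Mcl1 (394 FPKM), Bax (355), Bcl2l11 (292), Bcl2l1 (137), Bak1 (55.9), Bbc3 (53.1), Bid (24.2), Pmaip1 (19.3), Bcl2l15 (10.8) and Bcl2 (4.44), and only Bak1 and Bbc3 overlapped. Bcl2l1 thus moved from the ninth place to the fourth and Bcl2 from the seventh to the last. In the ko groups Bbc3 and Bak1 overlapped in all 3 populations, and Bcl2l11 overlapped Bcl2 in ActB, Bcl2l1 in PrePB and Bax in PB. In ko PB Bcl2l15 and Bcl2, the last in the order, also overlapped.

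**Figure D1:**
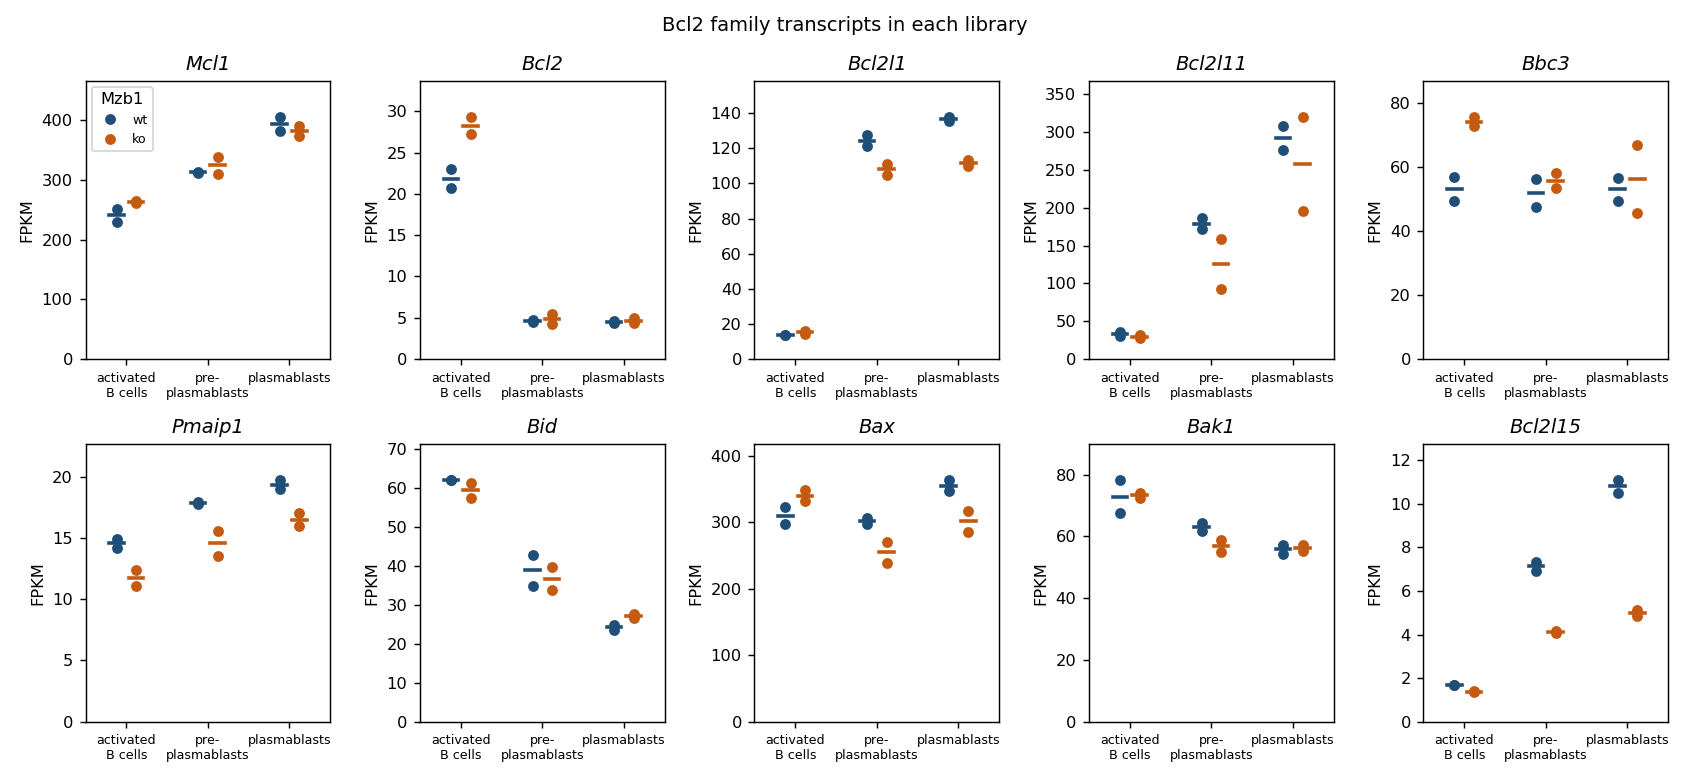
FPKM of the 10 Bcl2 family genes (vertical axes, each with its own scale from 0) in the 3 sorted populations, with 1 point per library, wt in blue and ko in orange, and the mean of 2 libraries as a line. Bcl2l1 goes from about 13.8 to 137 FPKM and Bcl2 from 21.9 to 4.44 FPKM between wt ActB and wt PB, and the 2 ko libraries of Bcl2l11 lie far apart in PrePB and PB.

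The 250 bases before the annotated start are shown for 5 members: Bcl2l1, Bcl2l11, Mcl1 and Bcl2l15, whose levels were higher in PB, and Bcl2, whose level was lower. The sequences come from RefSeq on GRCm38.p6, which is not the build the authors aligned to (mm9). Of the 10 members, 9 were matched there, with 14 start windows, and Pmaip1 was not. Capitals mark a match to 1 of 6 motifs searched on both strands: the Blimp1 core GAAAGTG, the XBP1 core CCACGT, the ATF4-CHOP element TGATGNAA, the forkhead core TGTTTAC, an NF-kappaB site (GGG and TTTCC with any 2 bases between) and the cyclic AMP response element TGACGTCA, which shares the letters ACGT with the XBP1 core.
Bcl2l11 (outermost start, chr2:128125788-128126037, plus strand): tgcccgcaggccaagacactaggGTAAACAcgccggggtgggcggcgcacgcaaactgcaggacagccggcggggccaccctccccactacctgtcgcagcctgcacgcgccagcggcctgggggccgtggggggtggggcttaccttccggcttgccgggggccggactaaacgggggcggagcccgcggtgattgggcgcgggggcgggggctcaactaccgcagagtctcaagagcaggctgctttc
Bcl2l1 (middle start of 3, chr2:152830718-152830967, minus strand): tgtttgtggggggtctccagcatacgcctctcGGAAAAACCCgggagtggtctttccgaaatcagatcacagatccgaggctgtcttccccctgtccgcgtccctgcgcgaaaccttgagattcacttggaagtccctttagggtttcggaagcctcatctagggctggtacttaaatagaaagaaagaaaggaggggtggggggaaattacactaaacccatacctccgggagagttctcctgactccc
Mcl1 (chr3:95658471-95658720, plus strand): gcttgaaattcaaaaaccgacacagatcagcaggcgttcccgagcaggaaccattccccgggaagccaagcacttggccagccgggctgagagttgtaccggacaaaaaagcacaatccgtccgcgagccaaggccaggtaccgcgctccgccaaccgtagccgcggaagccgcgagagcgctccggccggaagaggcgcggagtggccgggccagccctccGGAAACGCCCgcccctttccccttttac
Bcl2l15 (chr3:103832446-103832695, plus strand): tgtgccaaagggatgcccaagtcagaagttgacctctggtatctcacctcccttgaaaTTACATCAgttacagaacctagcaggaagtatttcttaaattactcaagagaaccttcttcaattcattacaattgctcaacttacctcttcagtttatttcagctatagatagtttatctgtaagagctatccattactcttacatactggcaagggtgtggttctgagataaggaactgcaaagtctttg
Bcl2 (chr1:106714291-106714540, minus strand): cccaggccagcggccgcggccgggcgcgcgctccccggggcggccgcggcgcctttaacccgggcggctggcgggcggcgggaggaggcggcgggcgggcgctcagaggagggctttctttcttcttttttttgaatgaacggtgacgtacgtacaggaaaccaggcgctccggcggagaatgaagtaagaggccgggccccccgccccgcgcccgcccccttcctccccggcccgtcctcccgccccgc

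The Bcl2l11 window held the forkhead core on the reverse strand at 227 to 221 bases before the start, and forkhead factors such as Foxo3 are known activators of this gene. That core was in 3.17% of 32851 windows of the same length. The Bcl2l1 and Mcl1 windows each held an NF-kappaB site, at 218 to 209 and at 28 to 19 bases before the start, against 1.41% of all windows. The Bcl2l15 window held an ATF4-CHOP element, 192 to 185 bases before the start, against 3.45% of all windows. The Bcl2 window held none of the 6 motifs. The windows shown for Bcl2l11 and Bcl2l1 are the ones with a match: the other Bcl2l11 window, the other two Bcl2l1 windows and those of Bid, Bax and Bak1 held none. The 3 Bbc3 windows held 1 motif each, an NF-kappaB site, a forkhead core and an XBP1 core (6.91% of all windows), and the Blimp1 core (4.01%) and the cyclic AMP response element (1.55%) were in none of the 14 windows. A match describes the letters only.

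Across wt differentiation the family changed its make-up: transcripts of Bcl-xL and Bim rose several-fold, Bcl2 and Bid fell, and the effector Bax did not pass the test. Between wt ActB and wt PB, 8 of the 10 members passed the test, 5 higher and 3 lower, where 31.0% of the 11069 genes tested were called higher and 31.0% lower, so the count of lower members is near the share of all genes. Between wt ActB and wt PrePB 5 members were higher and 2 lower, where 27.1% of all genes were called higher and 26.3% lower. The balance depended on the scaling: with equal totals 3 members were higher and 4 lower in PrePB and 4 and 4 in PB, and with quantile normalization 4 and 4 in PrePB and 5 and 4 in PB. Differences are log2 changes of FPKM + 1, tested with limma (two-sided, Benjamini-Hochberg adjusted over all genes tested) and called below an adjusted p of 0.05. The median over the members was 0.29 in wt PB against ActB, beside -0.014 over all genes. The 2 comparisons share the ActB libraries, so their values are given side by side and are not independent. Equal totals means totals without 1276 small RNA genes, which held 0.981 to 14.2% of a library's summed FPKM. Rescaling all libraries to such totals moved the median of all genes to -0.376 in wt PB against ActB. In wt PrePB against ActB it moved to -0.243. The calls changed from 3432 higher and 3432 lower to 2149 and 5773 in PB, and from 2999 and 2911 to 2108 and 4679 in PrePB.

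Bcl2l1, the gene of the pro-survival protein Bcl-xL, had the largest log2 change of the 10 members. It was at 13.9 and 13.8 FPKM in the wt ActB libraries, 128 and 121 in wt PrePB, and 138 and 135 in wt PB. All 4 later libraries lay far above both ActB libraries, and nearly all of the difference was already there in PrePB. The log2 change was 3.08 (SE 0.08, adjusted p = 2.02e-09 with limma) in PrePB and 3.21 (SE 0.08, adjusted p = 6.94e-10) in PB, a 9.27-fold change of FPKM + 1. Rescaling to equal totals left 2.81. The RefSeq annotation places Cox4i2, a subunit of cytochrome c oxidase, at overlapping positions, and Cox4i2 was at 0 to 0.161 FPKM in ActB and at 5.92 to 17.4 FPKM in the 8 later libraries. The library kit keeps strand but the strand setting of the counting is not given in the sources used here, and whether the 2 genes share reads was not tested.

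Bcl2, the founding pro-survival member, went the other way. It was at 20.7 and 23.0 FPKM in wt ActB, 4.76 and 4.43 in wt PrePB, and 4.33 and 4.55 in wt PB. The ActB libraries were above all 4 later ones, which overlapped each other. Its log2 change was -2.03 (SE 0.12, adjusted p = 2.51e-07 with limma) in PrePB and -2.07 (SE 0.12, adjusted p = 1.26e-07) in PB, or 4.20-fold lower.

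Mcl1, whose short-lived protein is rapidly degraded and must be made anew, rose in smaller steps. It was at 231 and 251 FPKM in wt ActB, 314 and 312 in wt PrePB, and 382 and 405 in wt PB, with no overlap between the 3 groups. On the log2 scale this was 0.38 (SE 0.08, adjusted p = 0.00305 with limma) in PrePB and 0.71 (SE 0.08, adjusted p = 2.77e-05) in PB. The smaller step depended on the scaling: it was 0.13 (adjusted p = 0.203) after rescaling to equal totals and 0.12 (adjusted p = 0.263) after quantile normalization, and it was 0.31 (adjusted p = 0.102) without the wt libraries numbered 1. The PB change kept its call under both, at 0.29 (adjusted p = 0.00791) and 0.26 (adjusted p = 0.0208).

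Mcl1 made up most of the summed FPKM of the 3 pro-survival members in every library. These 3 leave out the Bcl2a1 genes, which summed to 214 and 255 FPKM in wt ActB and 44.9 and 31.0 in wt PB. With them the sum was 479.5 and 543.5 FPKM in wt ActB and 569 and 576 in wt PB. Mcl1 was the smaller part of that sum in wt ActB (231 and 251 FPKM) and the larger in wt PB (382 and 405). The shares given here hold for the 3 members only. The share of Mcl1 was 87.0 to 87.2% in wt ActB, 70.4 to 71.3% in wt PrePB and 72.9 to 74.3% in wt PB. The share of Bcl2l1 was 4.77 to 5.25% in wt ActB and 24.8 to 28.6% in the 4 later wt libraries, and that of Bcl2 was 7.80 to 7.99% and then 0.826 to 1.07%. The ratio of Bcl2l1 to Bcl2 was 0.597 to 0.673 in wt ActB, 26.8 to 27.4 in wt PrePB and 29.7 to 31.8 in wt PB. In the ko the ratio was 0.514 to 0.554, 19.1 to 26.2 and 22.2 to 26.0, so the ko libraries lay below the wt libraries in each population. These shares are ratios within a library and do not change with a rescaling of its total.

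**Figure D2:**
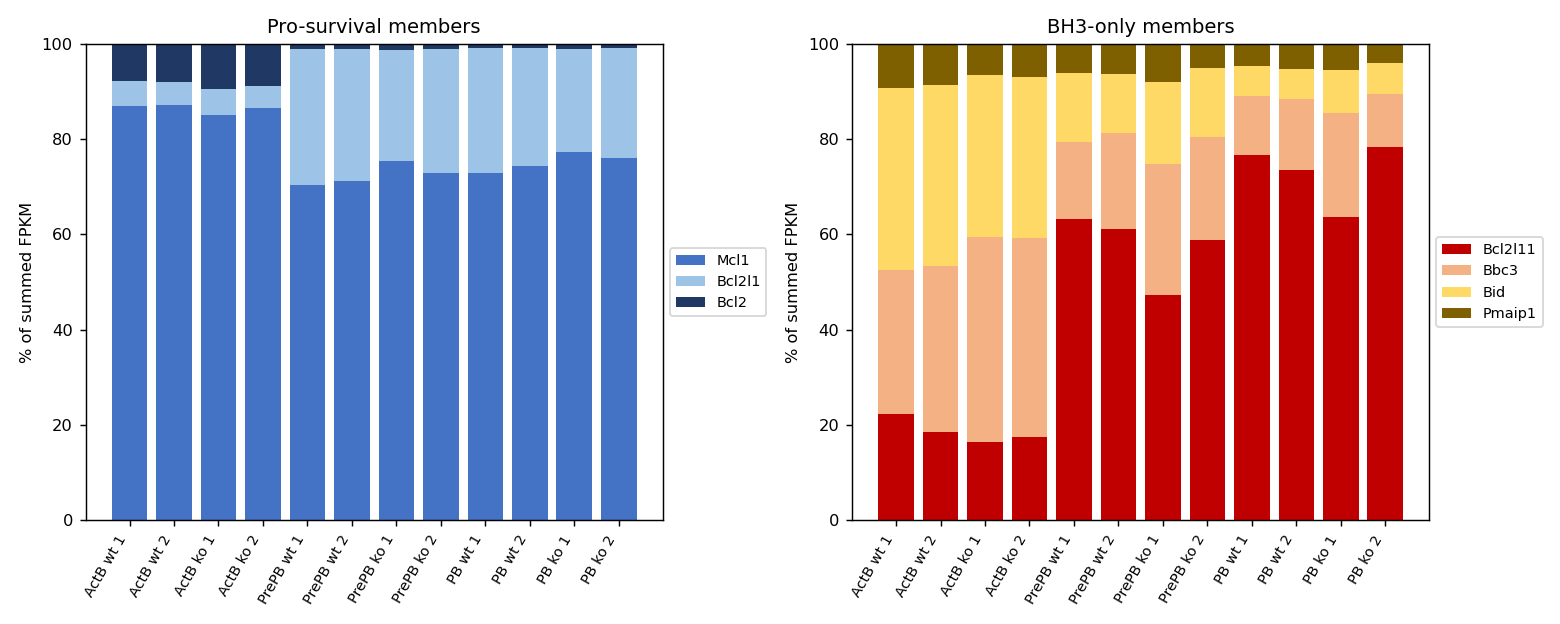
Share of the summed FPKM (% on the vertical axes) held by each pro-survival member (left) and each BH3-only member (right), with 1 bar per library in the order ActB, PrePB and PB. The pro-survival sum leaves out the Bcl2a1 genes, and the BH3-only sum leaves out Bad and Bmf. Bcl2l1 widens from 4.56 to 5.29% of the pro-survival sum in ActB to 23.3 to 28.6% in PrePB, and Bcl2l11 from 16.4 to 22.2% of the BH3-only sum in ActB to 63.6 to 78.4% in PB.

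Bcl2l11 encodes Bim, a BH3-only protein that binds all pro-survival members. It was at 36.0 and 30.1 FPKM in wt ActB, 186 and 172 in wt PrePB, and 308 and 276 in wt PB. The 3 groups did not overlap. The log2 change was 2.41 (SE 0.25, adjusted p = 1.57e-05 with limma) in PrePB and 3.11 (SE 0.25, adjusted p = 1.46e-06) in PB, an 8.63-fold change of FPKM + 1. Its share of the summed FPKM of the 4 BH3-only members was 18.4 to 22.2% in wt ActB, 61.2 to 63.3% in wt PrePB and 73.5 to 76.7% in wt PB. Acoxl, an acyl-CoA oxidase relative that overlaps it in RefSeq, was also lower in the 4 ActB libraries, at 0.154 to 0.412 FPKM, than in the 8 later ones, at 0.558 to 2.66 FPKM, and shared reads were not tested here either.

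Bid, the BH3-only protein that caspase-8 cleaves to link death receptors with mitochondria, moved opposite to Bcl2l11. It was at 62.0 FPKM in both wt ActB libraries, 42.8 and 34.8 in wt PrePB, and 24.9 and 23.5 in wt PB. The groups did not overlap and stepped down in order. Its log2 change was -0.67 (SE 0.11, adjusted p = 0.000377 with limma) in PrePB and -1.32 (SE 0.11, adjusted p = 1.51e-06) in PB. Bid held 38.0 to 38.2% of the BH3-only sum in wt ActB, more than any other BH3-only member, and 6.21 to 6.25% in wt PB.

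Pmaip1 encodes Noxa, a BH3-only protein that binds mainly Mcl-1. It was at 14.9 and 14.2 FPKM in wt ActB, 17.8 and 18.0 in wt PrePB, and 19.0 and 19.7 in wt PB. The groups did not overlap, and the difference was small. On the log2 scale this was 0.28 (adjusted p = 0.0293 with limma) in PrePB, a call that was lost when any 1 of the 4 libraries was left out, and 0.39 (adjusted p = 0.00454) in PB. Rescaling to equal totals took the PB change to -0.0028 (adjusted p = 0.985).

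Bbc3 encodes Puma, a BH3-only protein and a known target of p53. It was at 49.4 and 56.9 FPKM in wt ActB, 47.6 and 56.3 in wt PrePB, and 49.5 and 56.6 in wt PB. The 3 groups overlapped almost fully. The log2 change in PB was -0.0015 (95% interval -0.35 to 0.35, adjusted p = 0.995 with limma), and it was -0.41 (adjusted p = 0.049) after rescaling to equal totals.

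The summed FPKM of the 4 BH3-only members was highest where Bcl2l11 was highest. It was 162 to 163 FPKM in wt ActB, 281 to 294 in wt PrePB and 376 to 402 in wt PB, and the pro-survival sum was 265 to 288, 437 to 446 and 524 to 545. The ratio of the sums was 0.566 to 0.612 in wt ActB, 0.644 to 0.660 in wt PrePB and 0.689 to 0.766 in wt PB, so the groups did not overlap. In the ko the ratio was 0.551 to 0.589, 0.434 to 0.635 and 0.606 to 0.829, so PrePB overlapped both other groups and ActB lay below PB. The pro-survival sum leaves out the Bcl2a1 genes, which are not among the 10 members. The BH3-only sum likewise leaves out Bad and Bmf, so neither sum is its whole class. Bad was at 28.8 to 35.3 FPKM over all libraries, and Bmf averaged 4.74 FPKM in wt ActB and 23.0 in wt PB. With the Bcl2a1 genes the wt ratio was 0.300 to 0.339 in ActB, 0.588 to 0.591 in PrePB and 0.652 to 0.706 in PB. No test was made on these sums, since the members were chosen with results of these data known.

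The effectors differed less between populations than Bcl2l1 or Bcl2l11 did. Bax, which inserts into the outer membrane on activation, was at 297 and 323 FPKM in wt ActB, 306 and 298 in wt PrePB, and 364 and 347 in wt PB. PrePB overlapped ActB and PB lay above both. The log2 change in PB was 0.20 (SE 0.09, adjusted p = 0.0903 with limma), -0.22 (adjusted p = 0.0593) after rescaling to equal totals and -0.32 (adjusted p = 0.0142) after quantile normalization, so its direction depended on the scaling. Bak1, the effector that already sits in the outer membrane, was at 67.5 and 78.3 FPKM in wt ActB, 64.5 and 61.9 in wt PrePB, and 57.4 and 54.4 in wt PB. The groups did not overlap, and the log2 change was -0.37 (SE 0.08, adjusted p = 0.00273) in PB and -0.20 (adjusted p = 0.068) in PrePB. Rescaling to equal totals gave -0.78 in PB, and the PrePB change was called with equal totals (-0.45, adjusted p = 0.000554), with quantile normalization (-0.27, adjusted p = 0.00851) and without the wt libraries numbered 1 (-0.33, adjusted p = 0.0498). The ratio of Bax to Bak1 was 4.27 ± 0.20 (SD, n = 2) in wt ActB and 6.36 ± 0.02 in wt PB, and the libraries did not overlap.

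Bcl2l15 encodes Bfk, a divergent relative with a less defined role, and was the least abundant member in ActB. It was at 1.70 and 1.69 FPKM in wt ActB, 7.31 and 6.94 in wt PrePB, and 11.1 and 10.5 in wt PB. The groups did not overlap and stepped up in order. The log2 change was 1.59 (SE 0.10, adjusted p = 4.63e-07 with limma) in PrePB and 2.13 (SE 0.10, adjusted p = 3.22e-08) in PB.

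Fewer members passed the test between PrePB and PB. In the wt 3 of 10 members passed the test, Mcl1 and Bcl2l15 higher and Bid lower, where 5.02% of all genes were called higher and 3.70% lower. Mcl1 changed by 0.33 (adjusted p = 0.0352 with limma), Bcl2l15 by 0.54 (adjusted p = 0.0116) and Bid by -0.65 (adjusted p = 0.00557). The calls of Mcl1 and Bcl2l15 were lost when any 1 of the 4 libraries was left out (adjusted p = 0.0949 to 0.224 and 0.0508 to 0.0772), and that of Bid was lost without the PB library numbered 2 (adjusted p = 0.0552). With equal totals the called members were Bid and Bak1 (-0.33, adjusted p = 0.0222), both lower, while Mcl1 (0.17, adjusted p = 0.198) and Bcl2l15 (0.39, adjusted p = 0.0575) were not called, and with quantile normalization Mcl1 was at 0.14 (adjusted p = 0.338). Bcl2l11 was at 0.70 (adjusted p = 0.116), although its PB libraries lay above its PrePB libraries, and it was called with a replicate block (adjusted p = 0.00878) and with the compared groups alone (adjusted p = 0.0239). In the ko Bcl2l11 was higher by 1.04 (adjusted p = 0.0266) and Bid lower, at -0.41 (adjusted p = 0.0357), where 6.57% of all genes were called higher and 4.24% lower. The Bcl2l11 call was lost without the ko PrePB library numbered 1 (0.65, adjusted p = 0.183) or the ko PB library numbered 2 (0.68, adjusted p = 0.195). The Bid call was lost without any 1 of the 4 libraries, at -0.30 to -0.52 (adjusted p = 0.0522 to 0.198).

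In the ko cells Bcl2l1 and Bcl2l11 were again the most strongly raised members and Bcl2 the most strongly lowered. Between ko ActB and ko PB 5 members were higher and 4 lower, where 31.2% of all genes were called higher and 30.9% lower, and between ko ActB and ko PrePB the counts were 5 and 4, where 27.1% and 27.0% were called. Under both other scalings 4 were higher and 5 lower in PB, and in PrePB 3 and 5 with equal totals and 4 and 5 with quantile normalization. Set beside the wt, the ko log2 changes from ActB to PB were 2.81 for Bcl2l1 (3.21 in the wt), 3.04 for Bcl2l11 (3.11), 1.34 for Bcl2l15 (2.13), 0.54 for Mcl1 (0.71) and 0.46 for Pmaip1 (0.39). The lower members were Bcl2 at -2.37 (-2.07 in the wt), Bid at -1.10 (-1.32), Bak1 at -0.38 (-0.37) and Bbc3 at -0.42 (-0.0015). With no filter and with the compared groups alone, 3 members in place of 4 were called lower in ko PB. The Bbc3 call (adjusted p = 0.0396) was lost without the ko PB library numbered 2 (-0.15, adjusted p = 0.381) and without either ko ActB library (adjusted p = 0.089 and 0.127). The 5 higher members were also those called higher in ko PrePB, where Mcl1 (0.30, adjusted p = 0.0107) and Pmaip1 (0.29, adjusted p = 0.0252) lost the call after rescaling to equal totals (0.15 each) and without the ko ActB or the ko PrePB library numbered 1. Bax was called lower in ko PrePB, at -0.42 (adjusted p = 0.0033), and not in ko PB, at -0.18 (adjusted p = 0.125), where it was called with equal totals (-0.48, adjusted p = 0.000971) and with quantile normalization (-0.63, adjusted p = 0.000212). Mcl1 in ko PB lost its call after quantile normalization (0.16, adjusted p = 0.128), as did Pmaip1 after rescaling to equal totals (0.18, adjusted p = 0.181).

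**Figure D3:**
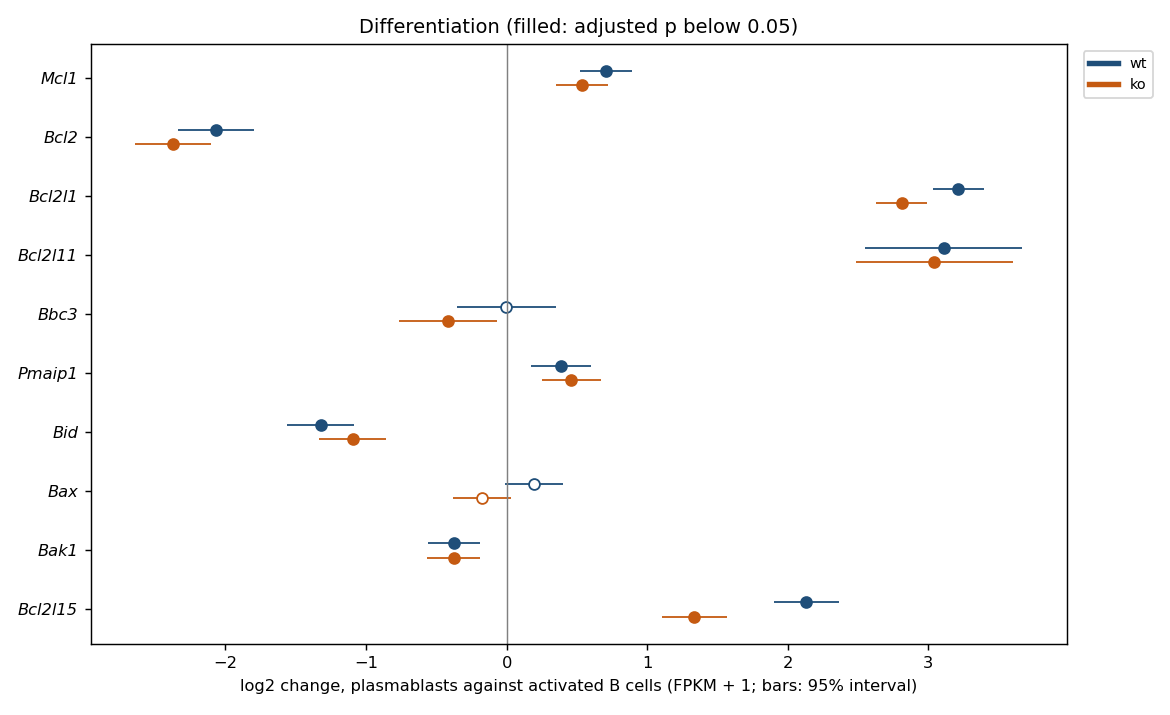
Log2 change of FPKM + 1 from ActB to PB (horizontal axis) for each member, in wt (blue) and ko (orange), with the 95% interval as a bar and filled points for an adjusted p below 0.05. Bcl2l1 and Bcl2l11 lie near 3 in both genotypes, Bcl2 near -2, and Bax is open in both.

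After loss of Mzb1, Bcl2l15 in plasmablasts was the only member to pass the test, and it was lower. In ActB and in PrePB none of the 10 members passed the test with limma, where 0.0542% and 0.117% of all genes were called. In PB 1 member passed, where 0.407% of all genes were called. At an unadjusted p under 0.05 there were 3, 5 and 4 members in ActB, PrePB and PB, beside 8.07%, 15.0% and 16.0% of all genes. The median log2 change over the members was 0.063 in ActB, -0.175 in PrePB and -0.129 in PB, beside 0.006, 0.014 and 0.025 over all genes.

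Bcl2l15 was at 1.35 and 1.39 FPKM in ko ActB, 4.19 and 4.09 in ko PrePB, and 5.12 and 4.86 in ko PB. In each population both ko libraries lay below both wt libraries. Its log2 change was -0.18 (95% interval -0.41 to 0.05, adjusted p = 0.718 with limma) in ActB, -0.66 (-0.89 to -0.43, adjusted p = 0.05004) in PrePB and -0.98 (-1.21 to -0.75, adjusted p = 0.0031) in PB, the last 1.97-fold lower on the FPKM + 1 scale. The PB value had about the same size without the 3 wt libraries numbered 1 (-0.94). With the PB libraries alone it was -0.98 (adjusted p = 0.155 with limma), and the call was lost. With a term for the 2 sets of libraries described above it was also -0.98 (adjusted p = 0.108), and the call was lost. In PB the sets coincide with genotype, so the term rests on the ko ActB and ko PrePB replicates, which differed little for Bcl2l15. It cannot take a set difference out of the PB value. The difference between the PB and ActB effects was -0.80 (adjusted p = 0.257).

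Bcl2l1 was at 16.2 and 14.0 FPKM in ko ActB, 105 and 111 in ko PrePB, and 110 and 113 in ko PB. The ko libraries lay below the wt libraries in PrePB and PB and above them in ActB. On the log2 scale this was 0.11 (adjusted p = 0.783 with limma), -0.20 (adjusted p = 0.28) and -0.29 (95% interval -0.47 to -0.11, adjusted p = 0.137), none past the threshold. The difference between the PB and ActB effects was -0.40 (adjusted p = 0.969).

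Bax also lay on different sides of the wt. It was at 348 and 333 FPKM in ko ActB, 239 and 271 in ko PrePB, and 318 and 285 in ko PB, above both wt libraries in ActB and below them in the later populations. The log2 change was 0.14 (adjusted p = 0.776 with limma), -0.24 (adjusted p = 0.261) and -0.24 (adjusted p = 0.261). Pmaip1, at 11.1 and 12.4, 15.5 and 13.5, and 17.1 and 15.9 FPKM in the same order, lay below the wt libraries in all 3 populations, with log2 changes of -0.29, -0.28 and -0.22 (adjusted p = 0.496, 0.217 and 0.296).

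Bcl2l11 was at 27.7 and 31.4 FPKM in ko ActB, 92.2 and 159 in ko PrePB, and 195 and 320 in ko PB. The ko libraries numbered 1 were far below those numbered 2 in the later populations, at 0.579 and 0.611 of their level, whereas the wt pairs differed by less. Its log2 change was -0.56 (95% interval -1.12 to -0.0011, adjusted p = 0.331 with limma) in PrePB, where both ko libraries were below the wt, and -0.22 (-0.78 to 0.34, adjusted p = 0.703) in PB, where the ko libraries enclosed the wt. With the term for the 2 sets of libraries these were -0.80 (adjusted p = 0.239) and -0.70 (adjusted p = 0.44). In PB the sets coincide with genotype, so the term rests on the ko ActB and ko PrePB replicates and carries their difference over. The -0.70 in PB thus cannot separate set from genotype, and the 2 ko PB libraries, in the same set, still lay apart.

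In ActB the 2 members with the largest log2 changes were Bbc3 and Bcl2. Bbc3 was at 72.8 and 75.6 FPKM in the ko, above both wt libraries, with a log2 change of 0.48 (95% interval 0.13 to 0.83, adjusted p = 0.496 with limma). In the later populations it was at 53.4 and 58.3 FPKM (PrePB) and at 66.8 and 45.7 (PB), and overlapped the wt. Bcl2 was at 29.3 and 27.3 FPKM in ko ActB, above both wt libraries, with 0.36 (0.09 to 0.63, adjusted p = 0.499), and at 5.46 and 4.25 FPKM (PrePB) and 4.97 and 4.36 (PB), where it overlapped the wt.

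The remaining members differed less between genotypes. Mcl1 was at 261 and 266 FPKM in ko ActB, 338 and 311 in ko PrePB and 391 and 375 in ko PB, with log2 changes from -0.04 to 0.13. Bid was at 57.4 and 61.2, 33.7 and 39.6, and 27.7 and 26.7 FPKM, with changes from -0.078 to 0.16. Bak1 was at 72.3 and 74.2, 55.1 and 58.9, and 57.1 and 55.3 FPKM, with changes from -0.15 to 0.011. None of these 3 members passed the test in any population, and the 95% interval of Bid, wider than those of the other two, ran from -0.07 to 0.40 in PB.

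**Figure D4:**
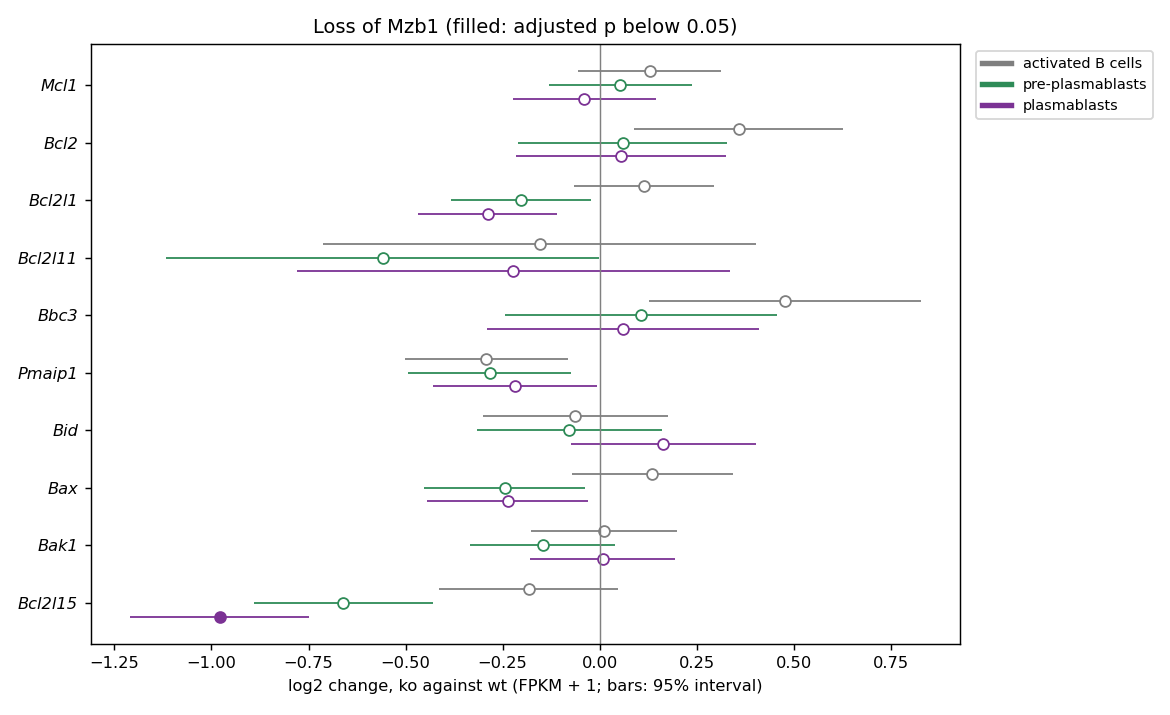
Log2 change of FPKM + 1 between ko and wt (horizontal axis) for each member in ActB (grey), PrePB (green) and PB (purple), with the 95% interval as a bar and filled points for an adjusted p below 0.05. Only Bcl2l15 in PB, at -0.98, is filled, and the intervals of Bcl2l11 are the widest.

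The direct tests of whether the effect of Mzb1 loss differed between populations called none of the 10 members with limma. At an unadjusted p under 0.05 there were 3 members for PrePB against ActB (Bcl2l1, Bax and Bcl2l15), 0 for PB against PrePB and the same 3 as first for PB against ActB. Over all genes 0.0361%, 0% and 0.0452% were called, with 395, 272 and 459 genes at an unadjusted p under 0.05. Among markers of other cells were 6 macrophage and granulocyte genes, of which 3 reached 1 FPKM and S100a9 was at 0 in all libraries. Their summed level was 86.6 to 92.5 FPKM in wt ActB and 128 to 135 in ko ActB, 3.25 to 4.00 and 13.2 to 18.7 in PrePB, and 0.333 to 0.505 and 3.92 to 5.15 in PB. Of the 3 tested after Mzb1 loss, 0 were called in ActB and 1 each in PrePB and PB, both higher. Over all genes 0.0542%, 0.117% and 0.407% were called. No T cell, natural killer cell or dendritic cell marker was called in these comparisons, and no erythroid gene was tested. In ActB the sum was mostly Itgam, at 77.4 to 122 FPKM, and Adgre1, at 7.84 to 28.2. Csf1r was at most 0.121, S100a8 at most 0.413 and Lyz2 at most 3.80 FPKM in any library. Of 6 B cell markers 1 passed the test after Mzb1 loss in PB: Pax5, a transcription factor of B cell identity, was at 2.02 and 2.76 FPKM in wt PB and at 7.24 and 5.92 in ko PB. The part of other cells in the values of the family was not tested.

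The other genes of the death pathway were followed with 6 lists of 75 genes in all, of which 69 passed the filter on low values. Between wt ActB and wt PB 25 of the 69 were higher and 21 lower, where 31.0% of all genes were called in each direction, so both counts are near the share of all genes. Among the 16 other Bcl2 family genes, 12 were tested, 3 were higher and 4 lower, also near that share, with a median of -0.13 beside -0.014 over all genes. Bmf, another BH3-only gene, rose from 4.74 ± 0.09 to 23.0 ± 3.05 FPKM (log2 change 2.06, adjusted p = 9.94e-07 with limma). The pro-survival paralogs Bcl2a1b and Bcl2a1d, which encode forms of A1, fell from 141 ± 19.4 to 21.5 ± 4.13 FPKM (-2.67, adjusted p = 7.19e-08) and from 91.2 ± 9.20 to 15.6 ± 6.16 FPKM (-2.52, adjusted p = 3.03e-06). The Bcl2a1 copies are nearly identical, so how reads were split among them is uncertain, but their sum was 214 to 289 FPKM in the 4 ActB libraries and 31.0 to 51.9 FPKM in the 8 later ones. Bcl2l12 fell from 26.6 ± 1.80 to 11.2 ± 0.53 FPKM (-1.18, adjusted p = 2.19e-06). The counts and medians of all 6 lists were taken without rescaling. Equal totals moved the median of all genes by -0.362 in wt PB against ActB. Whether the balance of higher and lower genes within a list depends on the scaling was not tested.

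Among the apoptosome and caspase genes and the mitochondrial partners, more passed the test lower than higher, beside 31.0% of all genes in each direction. Of the 16 apoptosome and caspase genes tested, 3 were higher and 9 lower, with a median of -0.43. Apaf1, the scaffold of the apoptosome, fell from 19.1 ± 0.30 to 12.3 ± 0.42 FPKM (-0.60, adjusted p = 0.000125 with limma), Dffb, the nuclease that cuts DNA in dying cells, from 20.1 ± 0.41 to 9.59 ± 0.45 FPKM (-0.99), and Birc3, an inhibitor of apoptosis, from 59.3 ± 1.27 to 30.5 ± 3.28 FPKM (-0.94). Htra2, a mitochondrial protease released with cytochrome c, rose from 38.7 ± 1.92 to 61.2 ± 0.20 FPKM (0.65). Of the 9 mitochondrial partners 1 was higher and 5 lower, with a median of -0.29: the outer membrane channels Vdac3, Vdac2 and Vdac1 fell (-1.19, -0.76 and -0.59), and Bcap31, an endoplasmic reticulum protein, rose (1.03). Of the 7 death receptor genes tested, near the share of all genes, 2 were higher (the TRAIL receptor Tnfrsf10b, 0.65, and the kinase Ripk1, 0.41) and 2 lower (Tnfrsf1b, -0.57, and the adaptor Tradd, -0.38).

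Among the p53 targets and the regulators, more passed the test higher than lower, beside 31.0% of all genes in each direction. Of 11 p53 genes 6 were higher and 1 lower, with a median of 0.47. Trp53 itself was the lower one, from 86.1 ± 3.47 to 52.7 ± 0.24 FPKM (-0.70, adjusted p = 7.05e-05 with limma). Trp53inp1 rose from 28.5 ± 0.92 to 328 ± 12.3 FPKM (3.48) and Mdm2, the ligase that degrades p53, from 52.1 ± 0.63 to 108 ± 2.34 FPKM (1.04), whereas the p53 targets Bbc3 and Pmaip1 were at -0.0015 and 0.39. Of 14 regulators of the members' transcription or protein stability 10 were higher and none lower, with a median of 0.77. Fbxw7, part of a ligase that marks Mcl-1 for degradation, rose from 7.53 ± 0.40 to 19.8 ± 0.29 FPKM (1.29), the kinase Pim1 from 226 ± 26.1 to 714 ± 25.8 FPKM (1.66), and the receptors of BAFF and APRIL Tnfrsf13b (TACI) and Tnfrsf17 (BCMA) by 1.42 and 4.63. After Mzb1 loss none of the 69 pathway genes passed the test in any population with limma, with 13, 16 and 15 of them at an unadjusted p under 0.05 in ActB, PrePB and PB, beside 8.07%, 15.0% and 16.0% of all genes.

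**Figure D5:**
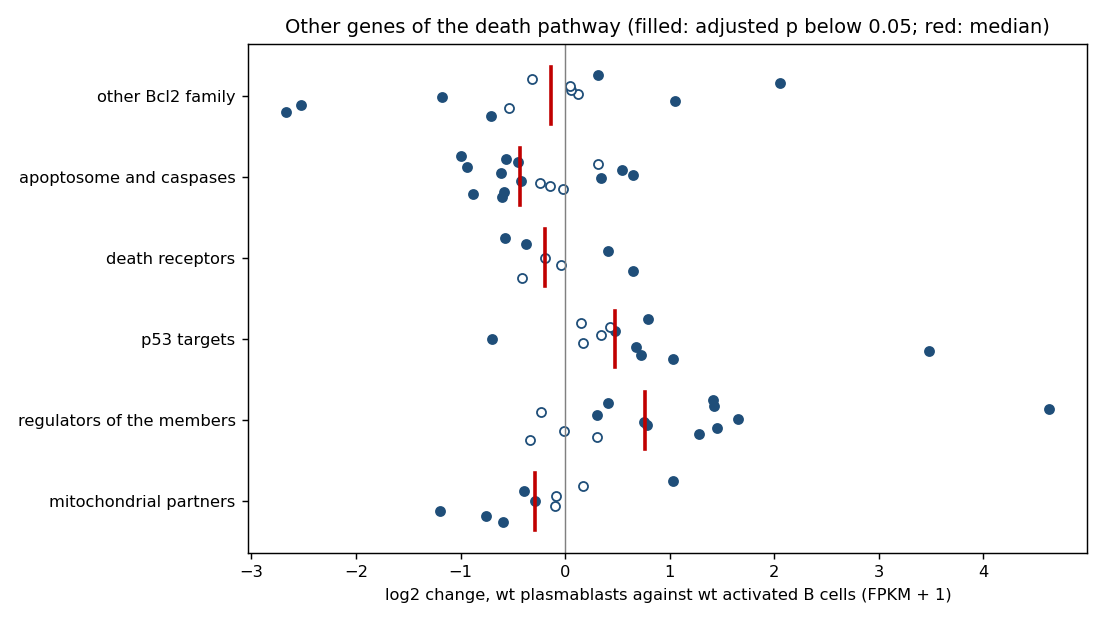
Log2 change of FPKM + 1 from wt ActB to wt PB (horizontal axis) for each tested gene of the 6 lists, with filled points for an adjusted p below 0.05 and a red line at each list's median. The medians run from -0.43 for the apoptosome and caspase genes to 0.77 for the regulators.

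For 6 members the 3 genes with the most similar pattern were sought by Pearson r of log2(FPKM + 1) over the 12 libraries, as a description. The libraries share populations, so genes that differ between ActB and the later populations correlate by that alone. Bcl2l1 was closest to Cnep1r1, Tinf2 and Dusp4 (0.995 each). Bcl2 was closest to Dtx4 (0.997), Vim and Mtmr14 (0.995 each), all high in ActB: Vim was at 568 to 824 FPKM in the 4 ActB libraries and at 78.0 to 111 in the others. Bcl2l11 was closest to Asph and Man1a2 (0.994 each) and N4bp1 (0.993), and all 3 were lower in the ko PrePB and PB libraries numbered 1 than in those numbered 2, as Bcl2l11 was. The 3 genes were picked by their likeness over these same libraries, so this shared difference is partly built into the choice. Mcl1 was closest to Wdr45 (0.989), Cln6 (0.987) and Spn (0.986). Pmaip1 was closest to Elovl5 (0.955), Ndufb6 and Apcs (0.929 each). For Bbc3, whose log2 change from wt ActB to wt PB was the nearest to 0, the highest values were lower, at 0.878 for Pidd1, 0.853 for 2210016L21Rik and 0.848 for Triobp.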

How the data were processed

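RNA was measured by strand-marking, poly(A)-selected sequencing, and each of the 12 libraries has 1 table of FPKM values per gene made by the authors. Per the submitters' processing notes reads were handled with TopHat2 (version 2.0.14) and the Cufflinks programs Cuffdiff and Cuffnorm (version 2.2.1), and the genome build was mm9. The gene annotation, the scaling between libraries and the strand setting are not given in the sources used here. The deposited FPKM hold no fragment counts, so the depth is unknown and the number of libraries limits the precision.

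FPKM were turned into log2(FPKM + 1), which understates changes of low genes. Genes at 1 FPKM or more in at least 2 libraries were tested (11069 of 24325 symbols). A limma-trend model (limma 3.58.1, R 4.3.3) with 1 coefficient for each of the 6 groups gave 9 comparisons and 3 differences of the ko effect, two-sided, Benjamini-Hochberg adjusted over all genes, and called below 0.05. The scripts were tested on simulated data. Alternatives of scale and filter were quantile normalization, equal totals without the small RNA genes, a pseudocount of 0.1, no filter and a filter of 5 FPKM. Alternatives of the model were the compared groups alone, a replicate block, a term for the low-value step, and leaving out libraries.

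The members and lists were chosen with earlier results of these data known. The text names all 10 members, Mzb1, up to 4 called genes per pathway list with the lowest p in wt plasmablasts against wt activated B cells, any listed gene called after Mzb1 loss, and the 3 genes most like each of 6 members. Bad is named besides, as a BH3-only gene outside the sums. Promoter windows are RefSeq's on GRCm38.p6 and no mm9 coordinates were used.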

Additional observations from a re-analysis of the deposited data

How the results depend on the processing

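Of 1690 recomputed log2 changes of single members, 1515 kept their direction and their side of the threshold, 61 lost the call, 20 gained one and 94 changed sign. Of these 94, 92 were called under neither setting, with sizes of at most 0.34, and the remaining 2 were Bax in wt PB against ActB under quantile normalization (-0.32, adjusted p = 0.0142) and Pmaip1 there with equal totals (-0.0028, adjusted p = 0.985). The cause of these changes was not tested. The number of members called after Mzb1 loss became 1 in PrePB with no filter and with quantile normalization, and 0 in PB with the compared groups alone, with the term for the low-value step and without the wt libraries numbered 1. Between wt PrePB and PB it was 0 without the wt libraries numbered 1 and 0 to 1 when 1 library was left out. Between ko PrePB and PB it was 0 with no filter, with the compared groups alone and without the wt libraries numbered 1, 1 with the step term, and 0 to 1 when 1 library was left out. The difference of the ko effect between PB and ActB called 1 member with no filter (Bcl2l15). The labels do not say that replicate numbers pair libraries. Across genes, the difference between replicates in the wt had a correlation of -0.11, -0.08 and -0.05 with that in the ko (ActB, PrePB and PB), which gives no sign of a pairing of wt with ko. The wt replicates also differ in Xist and Ddx3y and the ko replicates do not, so these values cannot decide whether wt and ko pair. Between populations of 1 genotype it was 0.05, 0.24 and 0.32 in the wt and 0.29, 0.11 and 0.10 in the ko (ActB with PrePB, ActB with PB, and PrePB with PB), and the wt libraries numbered 1 all express Xist, so a pairing there is a hint from the data. With the block, wt PB against PrePB called 4 members (Bcl2l11 added, adjusted p = 0.00878) and 1558 genes in place of 966, ko PrePB against ActB called 10 members, 2 genes in place of 4 were called for the difference of the ko effect between PrePB and ActB, and the other counts of members were unchanged. The crossed block for ko against wt ActB, chosen after seeing the data, called 0 members and 8 genes. Over all genes, ko against wt called 6 genes in ActB (31 with no filter, 3 with the compared groups alone, 14 without the wt libraries numbered 1, 3 to 6 leaving out 1 library), 13 in PrePB (32, 8 and 12, 20 with quantile normalization as 12 higher and 8 lower in place of 11 and 2, 24 with equal totals, 7 to 8 leaving out 1) and 45 in PB (48, 8 and 9, 72 with equal totals as 60 higher and 12 lower in place of 29 and 16, 4 with the step term, 10 to 41 leaving out 1). PB against PrePB called 966 in the wt (407, 532 and 58, 1457 with equal totals as 315 higher and 1142 lower, 248 to 418 leaving out 1) and 1196 in the ko (581, 489 and 724, 1414 with equal totals as 389 and 1025, 377 to 808 leaving out 1). With equal totals, ko PrePB and ko PB against ActB gave 2391 higher and 3976 lower, and 2445 and 5099. With no filter the 3 differences of the ko effect called 46, 37 and 50 genes in place of 4, 0 and 5. They ranged over 1 to 4, 0 to 1 and 2 to 10 when 1 library was left out, and were otherwise 1 to 5, 0 to 1 and 5 to 6. The unknown depth limits what can be said of Bcl2l15 in ActB, at 1.35 to 1.70 FPKM.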

Other observations

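The counts of called death pathway genes were also taken by step, where over all genes 27.1% were called higher and 26.3% lower in wt PrePB against ActB and 5.02% and 3.70% from PrePB to PB, so fewer calls in the second step are not particular to a list. Of the 14 regulators of the members, 10 were higher already in wt PrePB against ActB and 2 from PrePB to PB, with medians of 0.73 and 0.18. Of the 16 apoptosome and caspase genes tested, 9 were lower and 2 higher in wt PrePB against ActB, and none was called in either direction from PrePB to PB, with medians of -0.35 and -0.04. Of 11 p53 targets 2 were higher and 1 lower in wt PrePB against ActB (median 0.04), and 4 were higher from PrePB to PB (median 0.43). In the ko 2 p53 targets were higher and 5 lower in PrePB against ActB (median -0.31), and 2 were higher from PrePB to PB (median 0.38). The comparisons share the PrePB libraries, and no difference between the steps was tested.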
